A study of Mus musculus with 6 samples.

Results

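The transforming growth factor beta (TGF-beta) pathway was followed in primary mouse keratinocytes, the epithelial cells of the epidermis, with and without the lipid peroxidase Gpx4. The set held 10 genes: the ligands Tgfb1, Tgfb2 and Tgfb3, the receptors Tgfbr1, Tgfbr2 and Tgfbr3, the signal transducer Smad3, the inhibitors Smad7 and Skil, and the secreted target Tgfbi. They were read by 26 of the 45037 probe sets tested, taking every probe set whose annotation gave 1 of these symbols and no other gene, and all 10 genes had at least 1 probe set. The set was chosen by a rule that cited the knockout against control difference itself, a higher Tgfbr2 and a lower Tgfbi. The differences of the 10 genes between genotypes are therefore given as a description, and nothing is supported with them. Where a probe set of these genes is said to be called, it passed the threshold used for all probe sets. Such a call is no support for a change, since the same contrast chose the set.

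Keratinocytes were isolated from newborn mice of a mixed C57BL6/FVB background and cultured. In the knockout mice a cre recombinase driven by the promoter of keratin 14, a gene of basal keratinocytes, removed Gpx4, and other cells in a culture could still carry the gene. Each array measured cells pooled from the knockout or the control mice of 1 litter, and litters A, B and C gave 3 control and 3 knockout arrays. Sodium selenite, from which cells take the selenium for selenoproteins such as Gpx4, was added at 100 nM to both genotypes. The labels call the controls only control and do not say which Gpx4 alleles or cre transgene they carried. They do not give the sex of the pooled mice.

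TGF-beta is secreted in a latent complex and released outside the cell, where it binds a type II receptor that phosphorylates a type I receptor. The type I receptor then phosphorylates Smad2 and Smad3, which join Smad4 and act on target genes in the nucleus, and Smad7 and SnoN, the product of Skil, oppose this signal. In the epidermis the pathway is best known for holding back keratinocyte division and for inducing genes of the extracellular matrix and of wound repair.

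The promoters of Tgfbr2 and Tgfbi are shown because these are the 2 genes that the rule named for moving in opposite directions. Each sequence runs 5′ to 3′ on the strand of its gene, from 250 bases before the annotated start to 50 bases after it, and comes from RefSeq on GRCm38.p6. A promoter was used for 6 of the 10 genes. Capitals mark matches on either strand to the motifs searched: CAGAC (the core of the SMAD element called a CAGA box), the SMAD palindrome GTCTAGAC, the AP-1 site TGANTCA, the cyclic AMP response element TGACGTCA and the GC box GGGCGG.

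Tgfbr2, chr9:116175314-116175613, minus strand: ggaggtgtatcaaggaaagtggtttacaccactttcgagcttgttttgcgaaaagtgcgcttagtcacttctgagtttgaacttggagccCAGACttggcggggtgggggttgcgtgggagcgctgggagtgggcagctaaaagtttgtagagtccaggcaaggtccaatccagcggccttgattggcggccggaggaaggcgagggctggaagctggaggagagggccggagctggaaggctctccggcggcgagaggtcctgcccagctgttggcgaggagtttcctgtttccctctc

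Tgfbi, chr13:56609336-56609635, plus strand: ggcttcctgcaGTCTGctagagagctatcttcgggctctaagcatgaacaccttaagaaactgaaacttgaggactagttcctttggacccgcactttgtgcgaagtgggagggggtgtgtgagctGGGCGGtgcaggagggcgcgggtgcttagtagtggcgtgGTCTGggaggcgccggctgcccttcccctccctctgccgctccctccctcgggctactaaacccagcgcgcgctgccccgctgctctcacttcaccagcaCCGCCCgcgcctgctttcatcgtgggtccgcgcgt

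The Tgfbr2 window held 1 CAGAC, which covers positions -160 to -156 from the start. The Tgfbi window held 2, both on the opposite strand, from -239 to -235 and from -85 to -81, and they appear in the printed strand as GTCTG. It also held 2 GC boxes, from -124 to -119 and, on the opposite strand, from 16 to 21. None of the other motifs matched in either window. CAGAC was present in 49.6% of all 32851 promoters of this length, the GC box in 35.7%, the AP-1 site in 7.81%, the cyclic AMP element in 1.79% and the palindrome in 0.213%. A match describes the letters of the window and is not a measured binding site. The motifs did not overlap in these 2 windows.

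Every array showed the basal keratins of the labelled cell type, and 1 control array stood apart. Krt5 and Krt14, the keratins of basal keratinocytes, had intensities between 6278 and 7049 on all 6 arrays. Of the 8 keratinocyte markers only Krt10, a keratin of differentiating cells, passed, and it fell by a log2 change of -1.42 (limma adjusted p = 0.00922). An unadjusted p under 0.05 was reached by 4 of the 8, which were Krt10, Krt1 (-1.21), Trp63 (-0.43) and Col17a1 (-0.36). Endothelial markers (4 genes, summed intensity 22.5 to 36.3) were near the floor in both genotypes. Immune markers (5 genes) summed to 35 to 66.7, of which Cd68 was at 25.5 to 43.6, with overlap between genotypes. The other immune markers were at 15.7 or less on every array. Among them Cd207 did not overlap, at 2.2 or less in controls and 2.62 to 9.35 in knockouts. Melanocyte markers were present and higher in the knockouts: the 5 genes summed to between 4176 and 4356 in controls and between 5884 and 6509 in knockouts. All 5 were above the controls without overlap, and Tyrp1 and Mlana rose (limma adjusted p = 0.038 and 0.0429). None of the 9 fibroblast and none of the 4 smooth muscle markers passed in limma, with 4 and 3 at an unadjusted p under 0.05. The 4 smooth muscle genes summed to 3270, 3320 and 2239 in controls A, B and C and to 2708 to 2992 in knockouts. Acta2 made up most of this, at 2860, 2882 and 1798 in controls A, B and C and 2193 to 2297 in knockouts. Tagln was at 396.3 to 432.6 in controls and 434.1 to 680.6 in knockouts. Fibroblast markers ran from Lum, at no more than 14 on any array, to the collagen gene Col1a1, at 43.6, 30.4 and 135.2 in controls A, B and C and at 116.8, 126.8 and 212.2 in the knockouts. The 9 genes summed to 222 and 225.9 in controls A and B, 646 in control C and 462.6 to 693.8 in knockouts. The genes of the Y chromosome Eif2s3y, Kdm5d and Uty fell (adjusted p = 0.00664, 0.0199 and 0.0239), from at least 43.3 on each control array to no more than 4.62 on each knockout array. Xist, which is expressed from the inactive X chromosome, rose from 388.9 to 536.2 in controls to 1214 to 1260 in knockouts (adjusted p = 0.0194). The sex makeup of the pools and the genotype therefore cannot be told apart in any value given here. In such pooled cultures fewer cells of a type and less RNA per cell cannot be told apart either.

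Control C differed from controls A and B by a root mean square of 0.38 and 0.36 on the log2 scale over all probe sets, against 0.26 between A and B. It lay nearer to the knockouts of litters B and C, at 0.31 and 0.33. The targeted gene checked the labels: on the brighter of its 2 probe sets Gpx4 was at 496.9, 550.9 and 535.7 in controls A, B and C and at 212, 259.7 and 216.1 in the knockouts, a fall of 2.22-fold (limma adjusted p = 0.0206).

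All levels are quantile-normalized intensities, which have no unit and cannot be compared between probe sets. All changes are knockout minus control on log2(intensity + 16), with the SE of a limma fit that pairs the arrays by litter. The added 16 makes the changes of dim probe sets look smaller than they are. A probe set was called where its p, adjusted by the Benjamini-Hochberg method over all 45037 probe sets, was under 0.05, and rose or fell is written only of called probe sets of genes outside the set of 10. Of the 26 probe sets of the 10 genes 1 was called higher and 1 lower, and of all probe sets 0.158% were called higher and 0.262% lower, or 0.42% in all. In 5 of the 26 every knockout array lay above every control array, as in 8.79% of all probe sets, and in 4 every knockout array lay below, as in 9.43%. The median log2 change was -0.016 over the 26 probe sets and 0.0018 over all probe sets. Of the 26, 7 were higher in the knockout of every litter, 7 lower in every litter and 12 mixed. Nothing is read from these shares, since the same contrast chose the set.

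**Figure D1:**
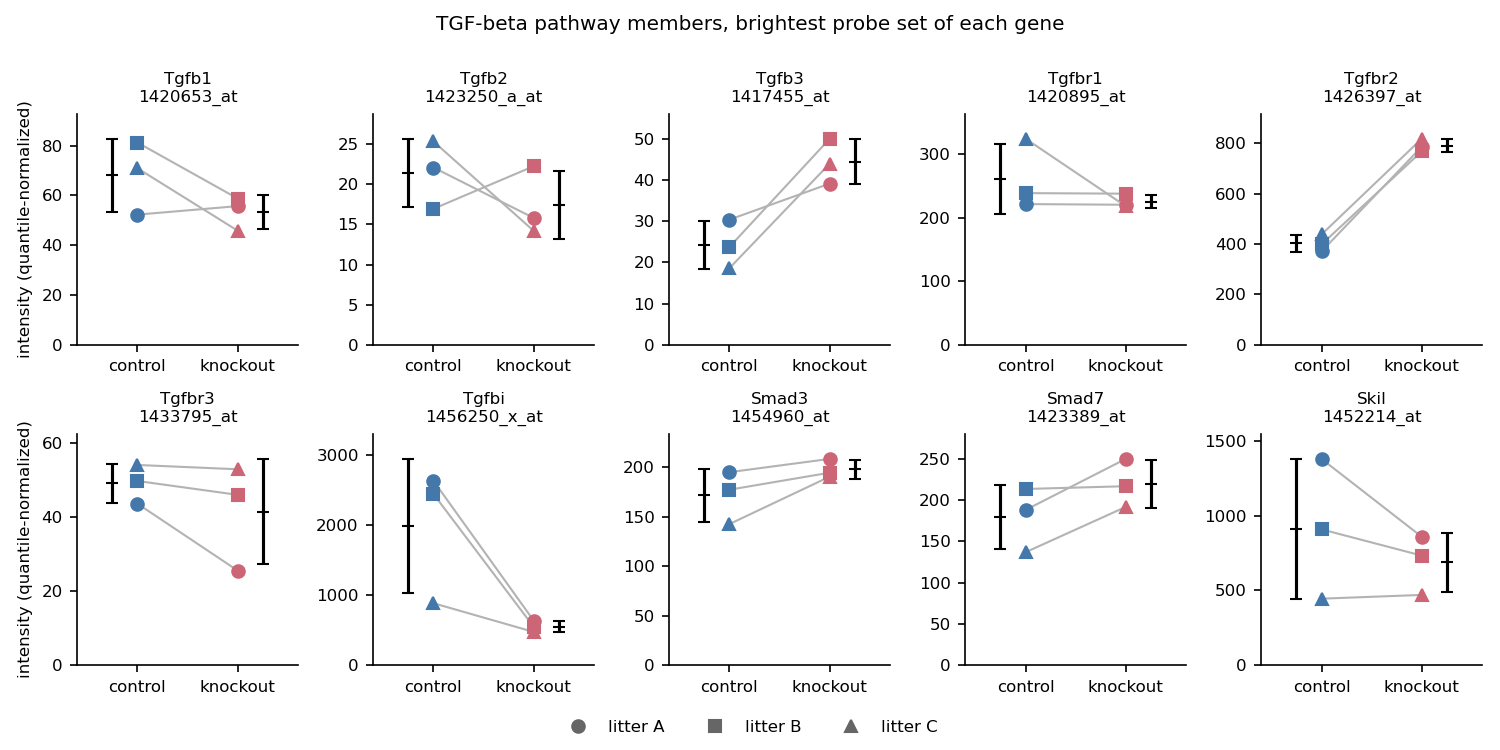
Quantile-normalized intensity of the brightest probe set of each of the 10 genes on the 6 arrays, with a linear axis from 0 in every panel. Grey lines join control and knockout of 1 litter (circles litter A, squares litter B, triangles litter C), and black bars give mean ± SD over 3 arrays. The Tgfbr2 lines run upward together from about 400 to about 790, and the Tgfbi lines run downward, with control C far below controls A and B.

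Of the 3 ligand genes, Tgfb3 alone had groups that did not overlap. Tgfb3, the isoform best known from palate and wound repair, was read by 1 probe set at 30.4, 23.8 and 18.6 in controls A, B and C and at 39.2, 50.1 and 44 in the knockouts. Every knockout array was above every control array. The log2 change was 0.59 ± 0.18, and the single litters gave 0.25 (A), 0.73 (B) and 0.79 (C), and it was not called. It kept its sign under all 15 alternative settings and lay between 0.30 and 0.87, the ends being pseudocounts of 64 and 1.

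Tgfb1, the most widely expressed isoform, was at 52.3, 81.2 and 70.9 in controls and at 55.7, 58.7 and 45.8 in knockouts on its brighter probe set. The groups overlapped, since control A lay below 2 of the knockouts, and the log2 change was -0.27 ± 0.16. Its second probe set was dim, between 8.35 and 19 on the 6 arrays, with a log2 change of -0.18 ± 0.15. Tgfb2, the isoform known from development of the heart and of hair follicles, was dim on all 4 of its probe sets. Its brightest probe set lay between 14.2 and 25.4, and the other 3 between 0.667 and 20.3. Their log2 changes ran from -0.21 to 0.10, the 4 overlapped between genotypes and no Tgfb2 probe set was called. Without litter C the change of 1 of them, 1450923_at, turned from -0.07 to 0.05. Between 45.4% and 50.1% of all probe sets of an array were under 16, and the brightest Tgfb2 probe set was near that level.

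Tgfbr2, the type II receptor that binds the ligand first, was higher in the knockout of every litter, as the choice of the set had it. Its brightest probe set, 1426397_at, the 1 called higher, was at 370.4, 398.1 and 437.7 in controls A, B and C and at 786.7, 768.4 and 818.6 in the knockouts. The lowest knockout array was far above the highest control array, and the spread within each genotype was small (402.1 ± 33.8 and 791.2 ± 25.4, SD, n = 3). The log2 change was 0.95 ± 0.084, or 1.93-fold, and the single litters gave 1.05 (A), 0.92 (B) and 0.88 (C). The second probe set, 1425444_a_at, gave 29.6, 49 and 37.5 in controls and 70.2, 73.7 and 86.2 in knockouts, again without overlap. Its log2 change was 0.77 ± 0.16 and it was not called. The third, 1422019_at, was at 8 or less on all 6 arrays and gave a log2 change of 0.08 ± 0.15. Control C, which stood apart for other genes, was close to the other controls for Tgfbr2, and the log2 change of the brightest probe set was 0.99 without litter C. That change lay between 0.77 and 1.02 under the 15 alternatives. The call was lost with the intensities as deposited (0.77), with arrays only centred on one median (0.83), without litter A (0.90) or litter B (0.97), and without any single array other than control C. The summed melanocyte markers were also above the controls on every knockout array (4176 to 4356 in controls and 5884 to 6509 in knockouts), and their part in the Tgfbr2 result was not tested.

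The type I receptor Tgfbr1 and the co-receptor Tgfbr3 had no called probe set. Tgfbr1, the kinase that phosphorylates Smad2 and Smad3, was at 221.6, 238.9 and 324.8 in controls and at 220.5, 238 and 218.2 in knockouts on its brightest probe set. Litters A and B were nearly level between genotypes, with log2 changes of -0.01 in both, and litter C gave -0.54, where the control was the array that stood apart. The fitted change was -0.18 ± 0.13, and -0.01 without litter C. The other 2 Tgfbr1 probe sets gave 0.04 ± 0.21 and -0.14 ± 0.20, and 0.26 and 0.06 without litter C. Tgfbr3, or betaglycan, which presents ligand to the type II receptor, was at 43.6, 49.7 and 54.1 in controls and at 25.5, 46 and 52.9 in knockouts. The knockout of litter A was the low array, and without it, and with no litter block, the log2 change went from -0.21 to 0.01. The second Tgfbr3 probe set was at 6.43 or less on all arrays.

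**Figure D2:**
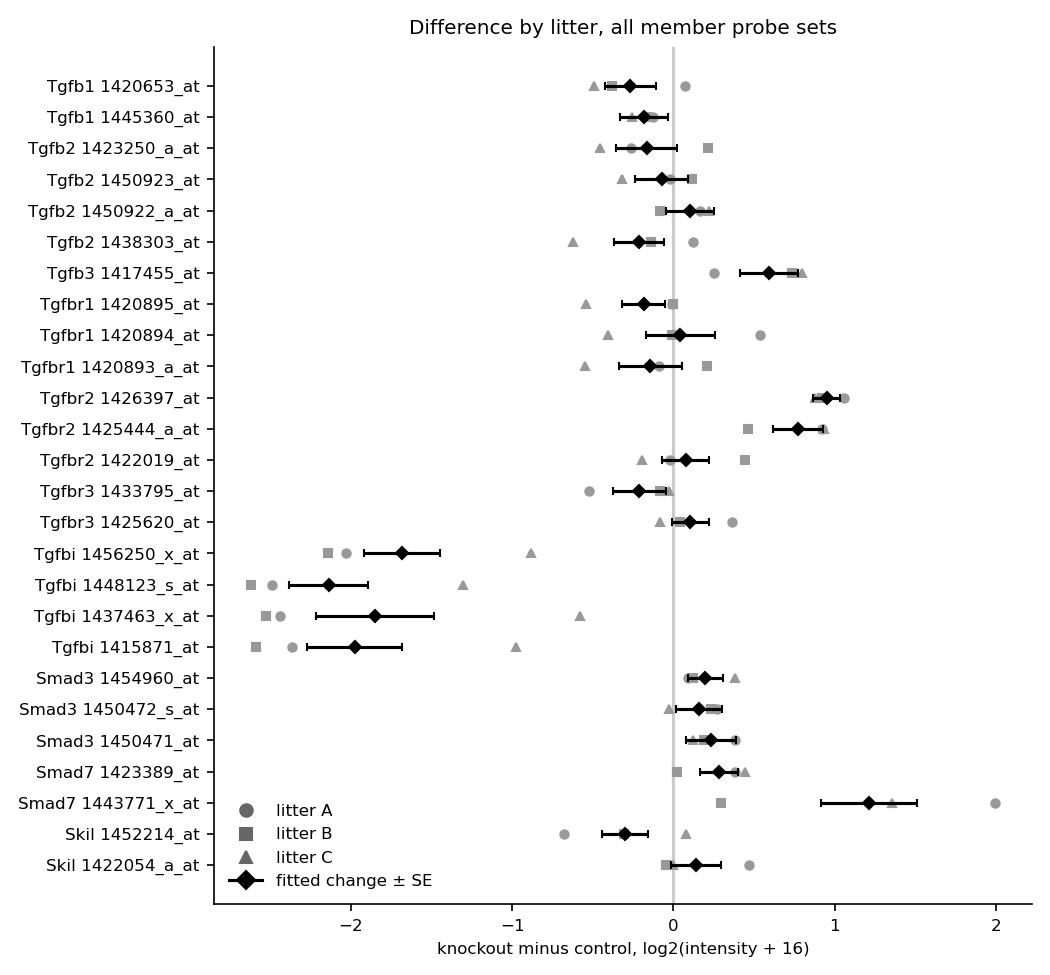
Knockout minus control difference on log2(intensity + 16) for all 26 probe sets of the 10 genes, with 1 grey symbol per litter and the fitted change ± SE as black diamonds. The Tgfbr2 probe sets 1426397_at and 1425444_a_at lie right of 0 in all litters, and the 4 Tgfbi probe sets lie left of 0 with litter C (triangles) nearest to it.

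Smad3, which carries the signal from the receptors to the nucleus, differed little. It was at 195.1, 177.3 and 142.6 in controls and at 208.5, 194.6 and 190.6 in knockouts on its brightest probe set, a log2 change of 0.20 ± 0.11. Control A overlapped with the knockouts. The other 2 probe sets gave 0.16 ± 0.14 and 0.23 ± 0.15, the latter without overlap (27.9 to 30.7 in controls and 33.8 to 41.1 in knockouts). All 3 changes shrank with the intensities as deposited, to 0.0040, -0.0024 and 0.10.

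The 2 inhibitors of SMAD signalling gave readings that depended on the probe set. Smad7, an inhibitory SMAD that blocks the type I receptor and is itself induced by TGF-beta, was at 188.2, 213.7 and 136.9 in controls and at 250.3, 217.1 and 192 in knockouts on the brighter probe set, 1423389_at. The genotypes overlapped and the log2 change was 0.28 ± 0.12. The other probe set, 1443771_x_at, gave 63.1, 92.5 and 41.5 in controls and 298.8, 116.8 and 131.1 in knockouts. Here every knockout array was above the controls, and knockout A was the highest at 298.8. The log2 change was 1.21 ± 0.30, and the single litters gave 1.99 (A), 0.29 (B) and 1.35 (C), and it was not called. It was 0.83 without the knockout of litter A and with no litter block, and 1.09 and called with arrays only centred on one median. By the naming convention of these arrays an x in the suffix marks probes that may also bind unrelated transcripts, and this was not tested for Smad7.

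Skil encodes a co-repressor that binds SMADs and is also a TGF-beta target, and neither of its probe sets was called. Its brighter probe set was at 1383, 910.2 and 444.7 in controls A, B and C and at 859.8, 733.8 and 469.9 in the knockouts of the same litters. In both genotypes litter C was the low one. The log2 change was -0.30 ± 0.14, and the single litters gave -0.68 (A), -0.30 (B) and 0.08 (C). Without litter C it was -0.49 and called, and without control A and with no litter block it was 0.07. The other probe set lay between 52.5 and 78.9 on the 6 arrays with a log2 change of 0.14 ± 0.16.

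Tgfbi, a secreted matrix protein named for its induction by TGF-beta, was lower in the knockouts on all 4 of its probe sets, as the choice of the set had it. The 1 probe set of the 10 genes called lower, 1448123_s_at, was at 2380, 2594 and 751.4 in controls A, B and C and at 410.9, 409.1 and 295 in the knockouts. The 3 knockout arrays lay close together, while control C was below the other controls and still above every knockout. The log2 change was -2.14 ± 0.25, or 4.40-fold lower, and the single litters gave -2.49 (A), -2.62 (B) and -1.30 (C). The probe set 1456250_x_at gave 2630, 2442 and 881.7 in controls and 630.7, 541.8 and 470.8 in knockouts, a log2 change of -1.69 ± 0.24. The probe sets 1437463_x_at and 1415871_at gave -1.85 ± 0.36 and -1.98 ± 0.29, also without overlap. The 4 probe sets read the same RNA samples and are not 4 independent measurements. Of these, 1456250_x_at and 1437463_x_at have an x in the suffix, and binding of unrelated transcripts was not tested for them.

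The Tgfbi level of control C lay between the knockouts and the other controls on each probe set. On the log2 scale the difference of control C from the mean of controls A and B ran from -1.51 to -2.07 over the 4 probe sets. The same difference for the knockout of litter C ran from -0.17 to -0.45. Without litter C the 4 log2 changes were -2.11, -2.58, -2.49 and -2.48, and all 4 were called. These calls are no support, since the same contrast chose the set. Without litter A or without litter B none was called, with changes of -1.47 to -1.94. Over the 15 alternatives the change of 1448123_s_at lay between -2.73 and -1.82. Its call was also lost without the litter block, with a pseudocount of 64 and without any single array other than control C. The summed fibroblast markers were low where Tgfbi was highest, at 222 and 225.9 in controls A and B, and 462.6 to 693.8 on the other 4 arrays. Each gene of that list was lowest in controls A and B, except Dcn and Lum. Dcn was at 12.4, 33 and 24.6 in controls A, B and C and at 18.9 to 22.9 in knockouts. The part of the fibroblast markers in the Tgfbi result was not tested.

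**Figure D3:**
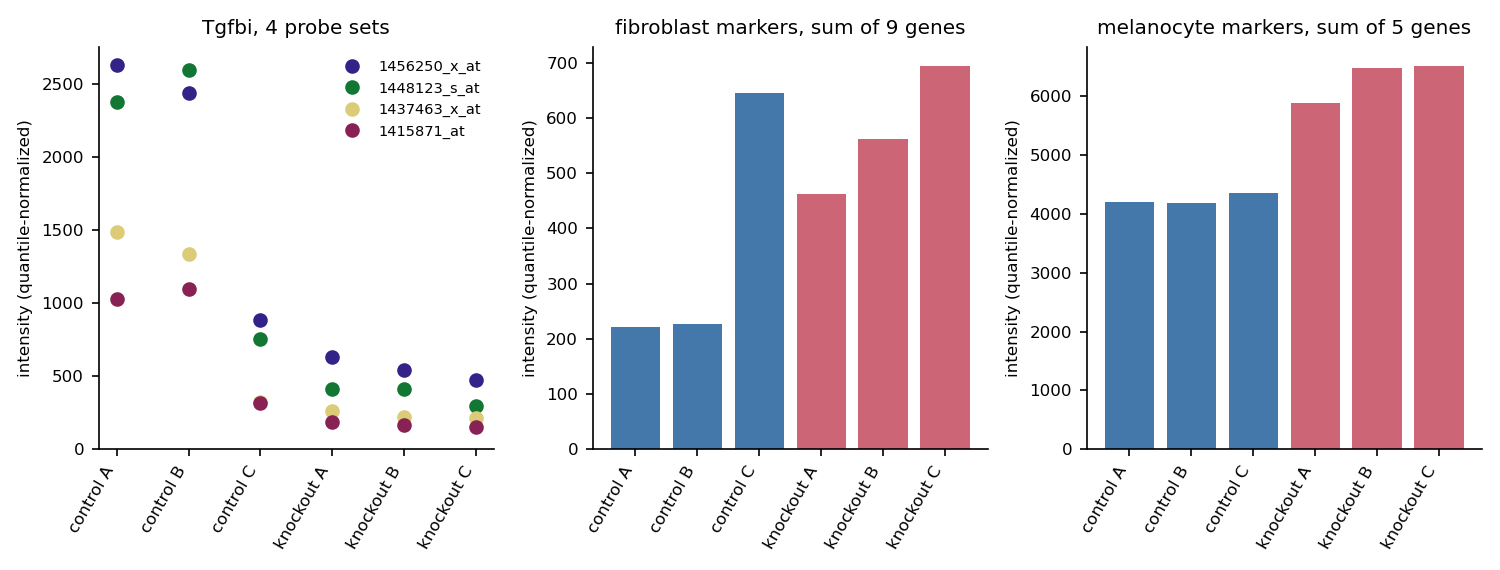
Quantile-normalized intensity of the 4 Tgfbi probe sets (left, points) and the summed intensity of 9 fibroblast markers and 5 melanocyte markers (middle and right, bars from 0; blue control, red knockout) on each of the 6 arrays. Control C has a Tgfbi level between the other controls and the knockouts and a fibroblast sum of 646, within the 462.6 to 693.8 of the knockouts, while its melanocyte sum of 4356 is near those of the other controls.

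Genes with profiles near those of Tgfbr2 and Tgfbi were listed by the root mean square difference of their log2 values over the 6 arrays, each centred on its mean and read by its brightest probe set, among 10701 genes with a mean log2 value above that of the median probe set. Nearest to Tgfbr2 were Cd28 (0.044), Prl8a9 (0.053), Tomm70a, a receptor of mitochondrial protein import (0.067), Epgn, the EGF receptor ligand epigen (0.071), and Oca2, a melanosome protein (0.078). Cd28, known from T cells, and Prl8a9 were dim in controls, at no more than 17.5 and 11.6, and passed the filter on brightness only through the knockouts. Epgn was at 385.4, 375.4 and 477.4 in controls and at 757.7, 762.5 and 786.7 in knockouts. Nearest to Tgfbi were Clca3a2 (0.098), Sbspon (0.13), the cytokine receptor subunit Lifr (0.15), the receptor kinase Mertk (0.16) and Lrrn3 (0.17). Sbspon and Lrrn3 passed the filter only through the controls. Clca3a2 was at 357.5, 387.6 and 124.2 in controls and at 73, 71.4 and 63.4 in knockouts.

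The rest of the pathway was covered by 6 lists of 71 further genes, of which 66 had a probe set with that symbol alone, each read by its brightest probe set. In these 66, 1 rose (Thbs1) and 2 fell (Itgb8 and Acvr1b), against 0.605% called in either direction over the 18193 genes on the array. Their median log2 change was -0.00044, beside 0.0018 over all probe sets. An unadjusted p under 0.05 was reached by 24 of the 66, and by 18% of the genes on the array. Without litter C 18 of the 66 were called, 7 higher and 11 lower, beside 8.35% of the genes on the array.

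**Figure D4:**
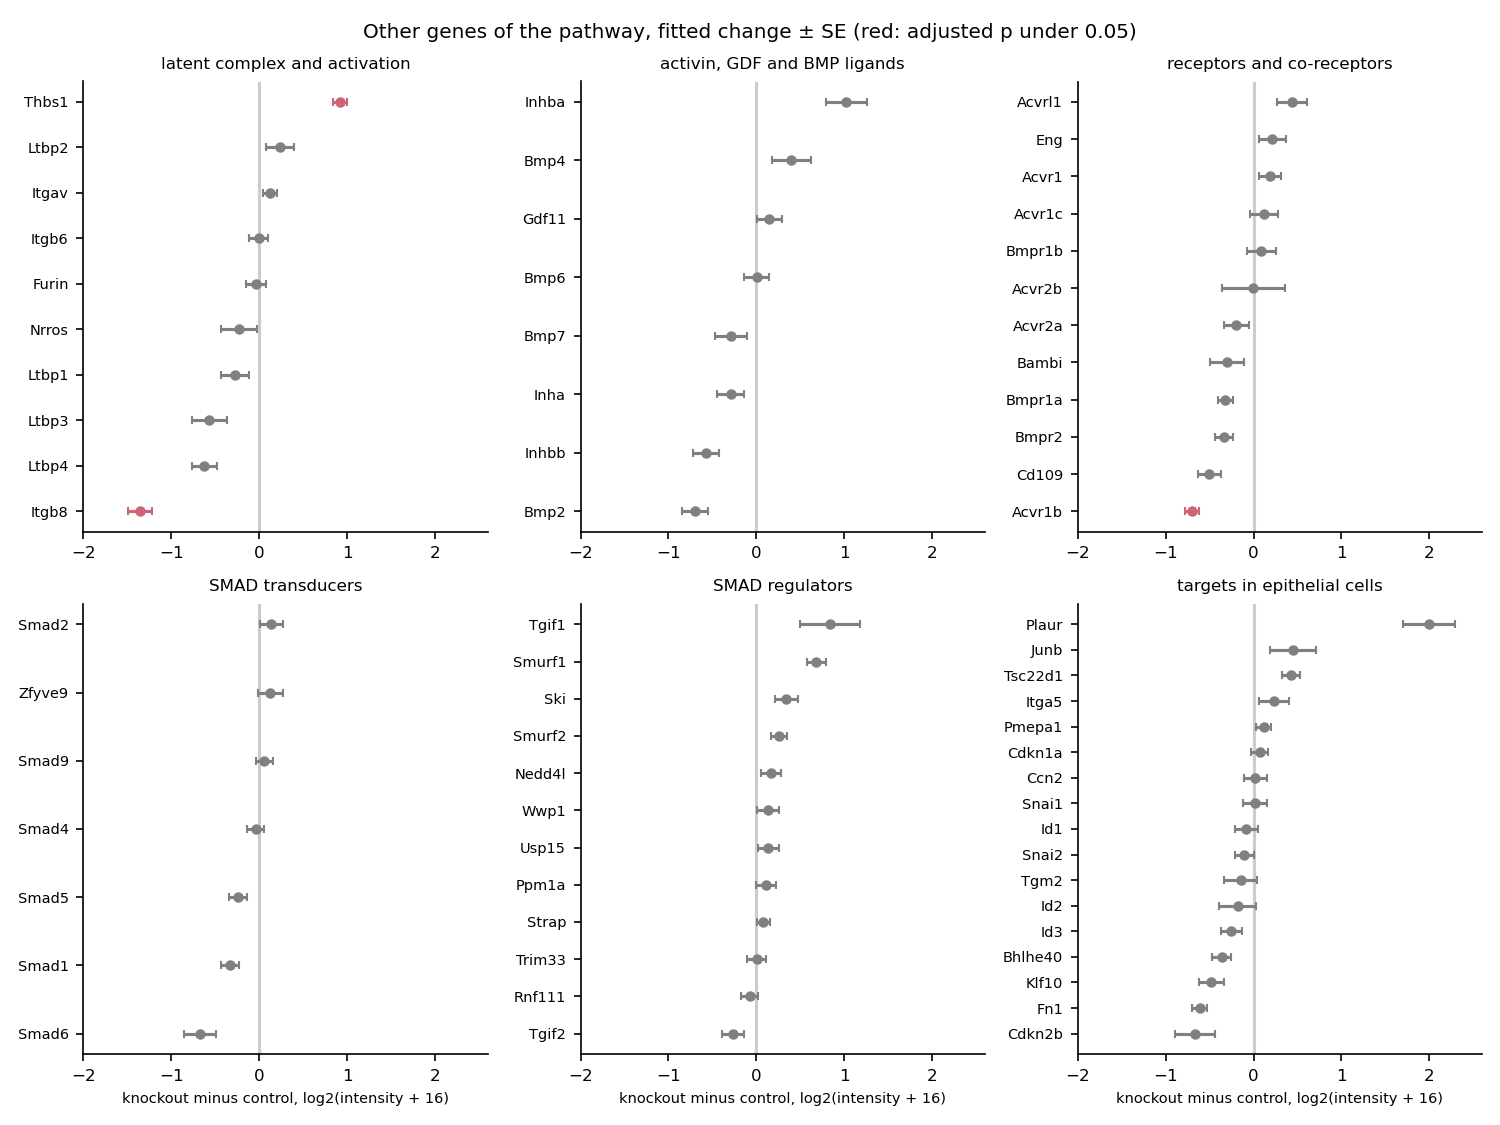
Fitted knockout minus control change ± SE on log2(intensity + 16) for the 66 further genes of the pathway, 1 panel per list, sorted within the panel. Red points are the 3 called genes, Thbs1 (0.92), Itgb8 (-1.36) and Acvr1b (-0.70), and the other 63 are grey.

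Among genes that store TGF-beta in its latent complex or release it, 1 rose and 1 fell. Thbs1, or thrombospondin 1, a matrix protein that can activate latent TGF-beta, was at 744.2, 597.6 and 504.8 in controls and at 1292, 1202 and 1013 in knockouts. Every knockout array was above the controls and Thbs1 rose by a log2 change of 0.92 ± 0.083 (limma adjusted p = 0.0249), and its second probe set rose by 0.91 ± 0.093 (0.0339). Itgb8, the beta subunit of an integrin that activates latent TGF-beta, was at 538.1, 545.3 and 272.2 in controls and at 185.1, 167 and 129.4 in knockouts. Control C was the low control here as for Tgfbi, and Itgb8 fell by a log2 change of -1.36 ± 0.14 (adjusted p = 0.0339). Of the 10 measured genes of this list 1 rose, 1 fell and 8 did not pass. Those 8 include the partner subunit Itgav (0.12) and Itgb6 (-0.01), the beta subunit of another activating integrin. Both calls ended with the intensities as deposited (adjusted p = 0.365 for Thbs1 and 0.0599 for Itgb8) and without the litter block (0.0596 and 0.0839), and without litter A or litter B. Over 16 alternatives Thbs1 was called in 6 (adjusted p from 0.00342 to 0.402) and Itgb8 in 5 (0.000629 to 0.402).

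Among 12 other receptors and co-receptors of the superfamily, Acvr1b, the activin type I receptor that also signals through Smad2 and Smad3, fell. It was at 566.1, 601.5 and 468.4 in controls and at 338.6, 376.3 and 275.6 in knockouts, without overlap. The log2 change was -0.70 ± 0.083 (limma adjusted p = 0.0394), and a dim second probe set (14.8 to 26.4) gave 0.11 ± 0.21. The call ended as deposited, where the change was -0.88 (adjusted p = 0.283), without the litter block (0.0936), and with the mean of both probe sets, which gave -0.29 (0.329). Acvr1b was called in 4 of the 16 alternatives, with adjusted p from 0.00704 to 0.443, and not without litter A or litter B. The other 11 did not pass, and the median of the list was -0.10.

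None of the 8 measured activin, GDF and BMP ligands passed in limma, and 3 had an unadjusted p under 0.05. These were Bmp2, Inhba and Inhbb. Inhba, the activin A subunit, was at 251.8, 262.9 and 531.8 in controls and at 704.9, 718.6 and 634.3 in knockouts (log2 change 1.02 ± 0.23, adjusted p = 0.128). Without litter C it was called at 1.41, and without litter A or B it was not. A second Inhba probe set, at 1.73 or less on all arrays, gave 0.03 ± 0.073. Bmp2 gave -0.70 ± 0.15 (adjusted p = 0.115) and Inhbb -0.57 ± 0.15 (0.164), both without overlap between the genotypes. Inhbb was called without litter C (-0.72, 0.0266), and not without litter A or litter B (adjusted p = 0.54 and 0.633). A dimmer Inhbb probe set gave 0.11 ± 0.28.

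None of the 7 SMAD transducers and none of the 12 SMAD regulators passed in limma, with 2 and 4 at an unadjusted p under 0.05. Smad6, an inhibitory SMAD of BMP signalling, was at 101.9, 104 and 47 in controls and 51.1, 44.2 and 38.3 in knockouts. Its log2 change was -0.67 ± 0.18 (adjusted p = 0.176). Smad6 was called without litter C (-0.89, 0.017), and not without litter A or litter B (0.547 and 0.647). Smad1 and Smad5, which carry BMP signals, gave -0.33 ± 0.11 (0.234) and -0.24 ± 0.11 (0.367). Dimmer Smad1 probe sets gave -0.33 ± 0.11 and 0.07 ± 0.14, and dimmer Smad5 probe sets gave 0.36 ± 0.13 and -0.19 ± 0.12. Among the regulators Smurf1, a ubiquitin ligase that marks SMADs and receptors for degradation, was at 156.2, 132 and 187.8 in controls and at 270.2, 243.7 and 271 in knockouts (log2 change 0.68 ± 0.11, adjusted p = 0.0691). It was called in 4 of 16 alternatives, among them without litter C (0.77, 0.00909), and its adjusted p was as high as 0.62. Its relative Smurf2 gave 0.26 ± 0.094 (0.284) and the co-repressor Ski 0.34 ± 0.13 (0.311). Dimmer Smurf2 probe sets gave 0.10 ± 0.10 and 0.04 ± 0.11, and a second Ski probe set of similar brightness gave -0.15 ± 0.17.

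None of the 17 measured genes known as TGF-beta targets in epithelial cells passed in limma, and 6 had an unadjusted p under 0.05. The median log2 change of this list was -0.08. Fn1, which encodes fibronectin, was at 682.9, 618.8 and 827.5 in controls and at 414.4, 438.8 and 518.3 in knockouts (log2 change -0.61 ± 0.087, adjusted p = 0.0552), without overlap. Plaur, the urokinase receptor, was at 30.5, 26.3 and 82.9 in controls and at 238, 226.1 and 184.4 in knockouts (1.99 ± 0.29, 0.0607). Fn1 was called in 4 of 16 alternatives (adjusted p from 0.0155 to 0.446) and Plaur in 5 (0.000454 to 0.462). A dimmer Fn1 probe set gave -0.12 ± 0.23 with overlap, and the mean of both Fn1 probe sets gave -0.37 (0.31). Without litter C the changes of Fn1 and Plaur were -0.59 and 2.44, both called. Tsc22d1 gave 0.43 ± 0.10 (0.148), and 0.57 and a call without litter C (0.00951). Ccn2 (0.02), Pmepa1 (0.11) and Cdkn1a (0.07), widely used as readouts of TGF-beta, did not pass. Klf10 (-0.48 ± 0.14), Bhlhe40 (-0.36 ± 0.11) and Cdkn2b (-0.67 ± 0.23) did not pass either, but were among those at an unadjusted p under 0.05. Each list was described by its counts and median, and no list was tested as a whole.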

How the data were processed

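RNA of 6 keratinocyte pools was measured on 1-colour Affymetrix arrays, per the labels. The deposited values are linear intensities, 1 for each probe set on each array; the authors' background correction, probe summary and scaling were not stated in what was used here. Trimmed means (2% at each end) differed up to 1.57-fold between arrays, so the intensities were quantile-normalized, without the 64 array controls of 45101 probe sets. Values were tested as log2(intensity + 16) in limma 3.58.1 (R 4.3.3; eBayes with a trend), two-sided, with Benjamini-Hochberg adjustment over 45037 probe sets. Litter was the block, since the labels tie each knockout pool to the control pool of its litter; same-litter residuals correlated with r = 0.17, 0.047 and 0.21. The fit was tested on simulated data, whose noise was independent between arrays and in which no array stood apart as control C did. Changes were put only into simulated probe sets above the median brightness. P-values of the main fit rest on how much the knockout minus control difference within a litter varied over 3 litters. The variance of each probe set was drawn toward a trend over all probe sets.

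Symbols came from the platform annotation of 2016, in which 34945 probe sets had 1 gene, 932 several and 9160 none listed. The 10 genes, the lists and the naming rule were chosen with earlier results of these data known. Named are all probe sets of the 10 genes and, of each list, the called genes or else the 3 with the smallest unadjusted p. Itgav, Itgb6, Ccn2, Pmepa1, Cdkn1a, Klf10, Bhlhe40, Cdkn2b, Tgif1 and Junb fall outside that rule and were chosen after their values were seen. Alternatives were 2 other scalings, pseudocounts of 1 and 64, leaving out the 40% dimmest probe sets, no litter block, each litter or array left out, and the mean of a gene's probe sets.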

Additional observations from a re-analysis of the deposited data

How the results depend on the processing

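Over all probe sets 189 were called, and 35 with the deposited intensities, 710 with arrays centred on one median, 601 and 59 with pseudocounts of 1 and 64, 1165 without the 40% dimmest probe sets and 135 with no replicate block, that is without pairing the arrays by litter. With a litter left out, or an array left out and no block, the count ran from 0 (without litter B, limma, with 3695 at an unadjusted p under 0.05) to 2666 (without litter C). Of the 66 further pathway genes 3 were called, and 0 as deposited (15 at an unadjusted p under 0.05), 2 with arrays centred on one median (Itgb8 and Plaur), 6 and 1 with pseudocounts of 1 and 64, 9 without the dimmest probe sets, 0 with no replicate block (20 at an unadjusted p under 0.05) and 1 with the mean of a gene's probe sets. With a litter or array left out the count ran from 0 (13 to 19 at an unadjusted p under 0.05) to 18, and only settings without control C gave more than 0. Of the 26 probe sets of the 10 genes 2 were called, and 0 to 6 under the alternatives. Neither called probe set changed sign. The 40% dimmest probe sets include 3 of the 26, which have no value there. An array left out was fitted without the block, with the spread shared over both groups. Dim probe sets, such as those of Tgfb2, allow only large changes to be seen on the log2(intensity + 16) scale.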

Other observations

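Control C lay near the knockouts for several further pathway genes, which were chosen here after their values were seen. Cdkn2b, a cell cycle inhibitor induced by TGF-beta, was at 179.6 and 187.3 in controls A and B, at 85.8 in control C and at 80.1, 83.9 and 89.6 in the knockouts. Its log2 changes were -1.03, -1.03 and 0.05 in litters A, B and C. Tgif1, a SMAD co-repressor, was at 156.3, 150.9 and 532.4 in controls A, B and C and at 449.9, 428.7 and 419.2 in the knockouts. Junb, an AP-1 subunit, was at 220.1, 224.2 and 437.9 in controls and at 464.3, 382.4 and 327.2 in knockouts. The source of the difference between litters was not tested.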
